A study of Mus musculus with 6 samples.

Results

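Interferon-stimulated effector genes are the genes whose protein products carry out the response to interferon, as distinct from the sensors, kinases and transcription factors that switch the response on. A list of 43 of them was set by gene symbol, current or former, and 41 were measured, each by 1 probe set, among 18784 genes with a named probe set on the array. Isg15 and Ifi44 are not analysed here. The cells were mouse B lymphomas of the genotype Arf-/-Eu-myc/Bcl-2, that is, without the tumour suppressor Arf and with the Eu-myc and Bcl-2 transgenes, of which Eu-myc drives MYC from an immunoglobulin enhancer in B cells. Both groups shared that genotype and were grown on irradiated Arf-/- mouse embryonic fibroblasts. Of the 6 arrays, 3 came from cells transduced with the hairpin RNA Rluc.713, the control named for Renilla luciferase, and 3 from cells with Dhx9.1241, named for the RNA and DNA helicase gene Dhx9. The comparison is thus of 1 hairpin with 1 control hairpin, and the labels name no drug and no interferon treatment. They do not say whether the arrays of a group came from separate cultures, so a p-value here measures array-to-array spread alone, and that spread may be technical.

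Type I interferons bind a receptor of the subunits IFNAR1 and IFNAR2, and the kinases JAK1 and TYK2 then activate a transcription factor complex that includes STAT2 and IRF9 and binds the interferon-stimulated response element in the promoters of target genes. Type II interferon acts through its own receptor, and its signal reaches promoters at the gamma-activated site. Many of the target genes encode antiviral proteins that bind foreign RNA, alter nucleotides, conjugate ISG15 or attack the membranes that pathogens live in, and some can be induced by IRF3 or IRF7 downstream of RNA sensors without interferon. B cells express the receptor and respond to it.

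In the Dhx9.1241 cells 10 of the 41 effector genes rose and 2 fell at an adjusted p under 0.05, while 29 did not pass the test. Over all genes tested, 2.07% passed as higher, 1.07% as lower and 3.14% in either direction. The genes that rose were Rsad2, Ifit1, Oasl2, Lgals3bp, Cxcl10, Ifit3, Oasl1, Rtp4, Usp18 and Ifi27, with log2 changes from 1.23 down to 0.36, and those that fell were Ifi47 and Parp14. Only Rsad2 and Ifit1 changed by 2-fold or more, as did 13 of all genes tested. The median log2 change of the 41 genes was 0.07, with 29 above 0. That of all genes was 0.0049, with 9858 of 18784 above 0. The 3 Dhx9.1241 arrays lay entirely above the 3 controls for 15 effector genes, and entirely below them for 4. Over all genes 11.6% lay entirely above and 8.51% entirely below.

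The 10 genes that rose did so on every Dhx9.1241 array. They were picked by a test on these same arrays, so this evenness describes them and is no separate support. Measured from the control mean of each gene, the median difference over these 10 was 0.81 on Dhx9.1241 replicate 1, 0.81 on replicate 2 and 0.76 on replicate 3, and the smallest single difference was 0.32. On the control arrays the same differences lay between -0.23 and 0.20.

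**Figure D1:**
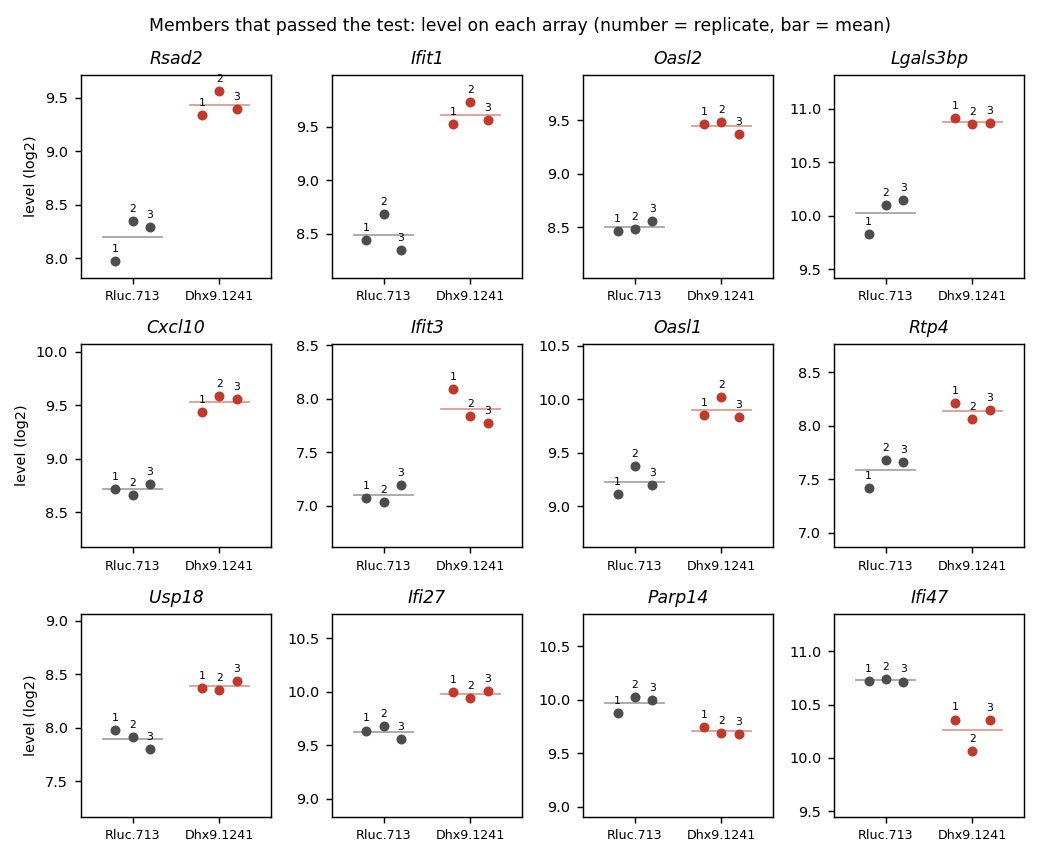
Level on the log2 scale (y axis) of the 12 effector genes that passed the test, on each of the 3 Rluc.713 arrays (grey) and 3 Dhx9.1241 arrays (red). Numbers give the replicate, bars the group mean, and every panel spans the same range of log2 units. Of these genes 10 lie higher and 2, Parp14 and Ifi47, lower on all Dhx9.1241 arrays.

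Some facts of the whole array set bear on these values. Dhx9 itself fell from 12.42 ± 0.063 to 11.42 ± 0.041 (SD, n = 3). The titles of the same arrays name dhx29, and Dhx29 differed by 0.04 (SE 0.053), so the arrays are grouped here by the hairpin that the other labels give. Rluc.713 replicate 1 stood apart, with a score of 16.7 on principal component 2 where the other controls had -4.81 and -5.29. It was the lowest control for 28 of the 41 effector genes, or 68.3%, against 38.8% of all genes. Without it, 10 effector genes rose, all of them among the 10 above, and 3 fell, Tor3a being the one added. The median log2 change of the 41 genes was then 0.0541, and that of all genes 0.0218. The mean level over 9 B cell markers was 12.29 to 12.38 on the control arrays and 12.22 to 12.29 on the Dhx9.1241 arrays. The groups all but touched, at 12.2894 and 12.289, and the median change of the 9 markers was -0.07. Of these markers 1 fell, Vpreb3, which had the largest change of the 9 (-0.57, adjusted p = 0.000891). None rose, and 4 lay entirely below the controls and 1 entirely above.

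Markers of other cells moved in part with the hairpin. Of 19 myeloid markers 5 fell, led by the macrophage and neutrophil lysozyme gene Lyz2 (-1.31), and none rose, where 1.07% of all genes fell. Entirely below the controls lay 7 of them, and 2 lay entirely above, Itgam (0.21) and Fcgr3 (0.22). Over all genes 8.51% lay entirely below and 11.6% entirely above. The mean level of the myeloid markers was 8.40 to 8.44 on the control arrays and 8.25 to 8.27 on the Dhx9.1241 arrays. Of 19 fibroblast markers, which the feeder layer could supply, 1 fell (Cav1, -0.25), with mean levels of 8.30 to 8.45 and 8.31 to 8.33. Among 17 markers of T and NK cells there was no call, with mean levels of 7.44 to 7.57 and 7.51 to 7.52. Of 9 markers of plasmacytoid dendritic cells, known as a strong source of type I interferon, Ly6d (0.28) and Pacsin1 (0.27) rose and Cox6a2 (-0.26) fell, while Siglech, a receptor characteristic of these cells, differed by -0.13 and did not pass. The 9 include Bst2, which is also among the effector genes, and Irf8, which is also counted with the IRFs below. In a bulk sample fewer cells of a type and less RNA per cell cannot be told apart, and array values have no true 0, so absence of a marker cannot be read from them. The part of these cells in the effector gene values was not tested.

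The effector genes, whether or not they passed the test, were set beside the letters of their promoters. RefSeq promoters of the mouse assembly GRCm38.p6, from 250 bases before to 50 after the annotated start, were at hand for 31 of the 41 genes. They were searched on both strands for the core of the interferon-stimulated response element, taken as 2 copies of GAAA with any 2 bases between them, overlapping matches being counted separately. It occurred in 14 of the 31 genes, against 3.99% of all 27025 genes with a promoter and 3.44% of all 32851 promoters. The genes were listed as interferon-stimulated, so that share is not independent of how they were chosen. Among the 7 genes that rose and had a promoter, 4 held it (Rsad2, Ifit1, Ifit3 and Cxcl10) and 3 did not (Oasl1, Oasl2 and Lgals3bp). Of the 23 genes that did not pass, 10 held it, and the 1 gene that fell and had a promoter, Ifi47, did not.

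These are the 220 bases before the start of the 4 genes that rose and held the core, shown on each gene's own strand because they carry the letters in question, with matches in capitals (a match on the other strand reads as TTTC repeated). Rsad2 lies at chr12:26456453-26456672 on the minus strand, Ifit1 at chr19:34640669-34640888 on the plus strand, Ifit3 at chr19:34583309-34583528 on the plus strand and Cxcl10 at chr5:92348890-92349109 on the minus strand.
Rsad2: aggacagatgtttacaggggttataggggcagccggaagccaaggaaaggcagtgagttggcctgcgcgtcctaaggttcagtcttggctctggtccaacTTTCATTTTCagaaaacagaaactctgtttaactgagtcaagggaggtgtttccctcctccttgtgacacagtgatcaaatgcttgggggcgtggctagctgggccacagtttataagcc
Ifit1: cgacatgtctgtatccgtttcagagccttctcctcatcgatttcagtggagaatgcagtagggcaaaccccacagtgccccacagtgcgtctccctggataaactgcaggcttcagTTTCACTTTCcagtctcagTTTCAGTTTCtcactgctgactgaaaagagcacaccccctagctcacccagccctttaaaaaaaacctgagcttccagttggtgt
Ifit3: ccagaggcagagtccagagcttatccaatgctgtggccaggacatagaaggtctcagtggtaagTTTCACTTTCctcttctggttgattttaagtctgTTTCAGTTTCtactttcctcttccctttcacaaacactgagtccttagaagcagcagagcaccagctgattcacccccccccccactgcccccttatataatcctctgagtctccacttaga
Cxcl10: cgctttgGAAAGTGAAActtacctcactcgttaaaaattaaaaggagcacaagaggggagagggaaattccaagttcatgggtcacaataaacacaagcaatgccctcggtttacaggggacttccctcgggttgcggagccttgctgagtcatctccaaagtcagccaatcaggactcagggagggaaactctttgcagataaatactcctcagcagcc

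For contrast, the same stretch is given for Oasl2, which rose and held no match in its window (chr5:114896714-114896933, plus strand), and for Oas1a (chr5:120907526-120907745, minus strand) and Irgm1 (chr11:48871421-48871640, minus strand), which did not pass the test and held overlapping matches close to the start. Capitals again mark the matches.
Oasl2: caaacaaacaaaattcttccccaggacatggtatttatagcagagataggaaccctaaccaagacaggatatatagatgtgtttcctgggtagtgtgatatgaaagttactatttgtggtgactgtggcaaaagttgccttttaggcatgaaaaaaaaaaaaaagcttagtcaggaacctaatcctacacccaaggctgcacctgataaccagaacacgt
Oas1a: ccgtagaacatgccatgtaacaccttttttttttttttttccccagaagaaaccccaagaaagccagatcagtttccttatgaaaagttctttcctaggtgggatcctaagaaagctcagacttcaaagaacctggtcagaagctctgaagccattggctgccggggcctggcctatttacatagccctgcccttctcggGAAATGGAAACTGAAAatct
Irgm1: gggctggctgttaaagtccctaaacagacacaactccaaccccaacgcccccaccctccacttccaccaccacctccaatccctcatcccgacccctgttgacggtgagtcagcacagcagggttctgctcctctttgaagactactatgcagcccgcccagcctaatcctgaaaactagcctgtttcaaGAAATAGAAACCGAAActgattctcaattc

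The leftmost base of the core stood 120 bases before the start in Rsad2, 104 and 85 before it in Ifit1, 156 and 122 in Ifit3 and 213 in Cxcl10. In Oas1a it stood 20 and 14 bases before the start, and in Irgm1 30 and 24. The gamma-activated site core, TTCNNNGAA, searched in the same windows on both strands, occurred in 7 of the 31 genes, in 0 of the 7 that rose, and in 9.55% of all genes with a promoter. Bst2 and Ifitm3 held both cores overlapping, and Oas1a and Igtp held both without overlap of the cores. A match is a description of letters and does not show that a factor binds there, and no match says only that these letters are not in this window.

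**Figure D2:**
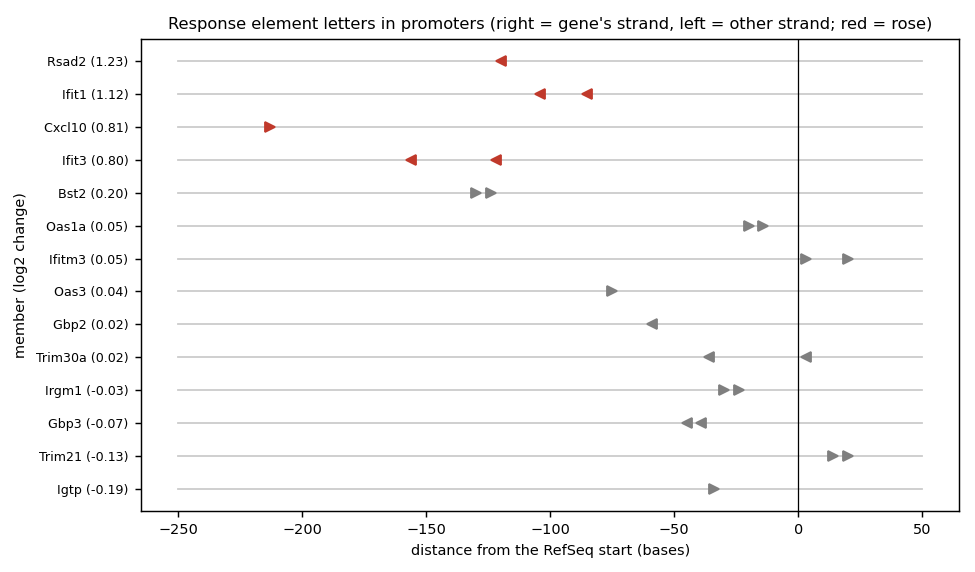
Position of each match to the response element core (triangles, pointing right on the gene's strand and left on the other) in the promoters of the 14 effector genes that hold one, by distance in bases from the RefSeq start (x axis). Genes are ordered by log2 change, given in parentheses, and red marks the 4 that rose; matches stand from 213 bases before the start in Cxcl10 to positions just after it in Trim21 and Ifitm3.

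The IFIT genes, whose proteins bind RNA with foreign ends and block its translation, were all higher in the Dhx9.1241 cells, and 2 of the 3 passed the test. Ifit1 stood at 8.44, 8.68 and 8.35 on the control arrays and at 9.52, 9.73 and 9.56 on the Dhx9.1241 arrays. The groups were apart, with 0.84 log2 units between the highest control and the lowest Dhx9.1241 array. That was a 2.17-fold rise, or 1.12 on the log2 scale (95% interval 0.90 to 1.33), with an adjusted p of 0.000961. Ifit3, whose protein joins other IFIT proteins in complexes, read 7.07, 7.04 and 7.19 in the controls and 8.09, 7.84 and 7.77 with Dhx9.1241. It rose by 0.80 (95% interval 0.60 to 1.00, adjusted p = 0.00287) without overlap. Ifit2, the neighbour of Ifit3 in the gene order with no coding gene between, read 7.55, 7.84 and 7.88 against 8.11, 7.90 and 8.12. Its groups did not overlap either, but its second Dhx9.1241 array lay close to the upper controls, and the change of 0.28 (95% interval 0.06 to 0.51) did not pass (adjusted p = 0.220). Copies of these genes that lie between Ifit3 and Ifit1 had values of their own, 0.14 for Ifit3b and 0.22 for Ifit1bl2, and neither passed. Both copies were dim, with control means of 5.24 and 5.54 where array medians were 8.43 to 8.51. The absence of a call in them therefore says little. The probe design is not given in the sources used here, so how far probe sets of such close copies share transcripts was not tested.

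Within the oligoadenylate synthetase family the OASL genes rose and the 3 OAS genes did not pass. OAS enzymes make oligoadenylates that activate the nuclease RNase L, while OASL proteins carry ubiquitin-like domains besides the OAS fold. Oasl2 read 8.47, 8.48 and 8.56 in the controls and 9.47, 9.49 and 9.37 with Dhx9.1241, with little spread in either group. Its change of 0.94 (SE 0.054, 95% interval 0.82 to 1.06) had the lowest adjusted p of any effector gene, 0.000179. Oasl1, known in mice to restrain translation of Irf7, read 9.11, 9.37 and 9.20 against 9.85, 10.02 and 9.83 and rose by 0.67 (adjusted p = 0.00433). The OASL genes lie side by side in the gene order. For Oas1a, Oas2 and Oas3 the groups overlapped, and the changes were 0.05, 0.13 and 0.04. Their 95% intervals reached at most 0.27, whereas those of Oasl1 and Oasl2 began at 0.49 and 0.82, though the difference between the families was not itself tested. Of the 6 further Oas1 copies measured, Oas1b differed most, by 0.33, and none passed.

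Of the enzymes that act on nucleotides and RNA, 1 of 3 rose. Rsad2 encodes viperin, which converts a nucleotide into a chain terminator of viral RNA synthesis. It read 7.97, 8.35 and 8.29 in the controls and 9.34, 9.56 and 9.39 in the Dhx9.1241 cells. Control replicate 1 was the lowest, and even from the highest control to the lowest Dhx9.1241 array the gap was 0.99 log2 units. The 2.35-fold rise, 1.23 on the log2 scale (95% interval 0.99 to 1.47), was the greatest among the effector genes, with an adjusted p of 0.000972. It was 1.11 without control replicate 1. Cmpk2, a mitochondrial nucleotide kinase gene adjacent to Rsad2, read 9.0005, 9.22 and 9.21 against 9.44, 9.33 and 9.38. Its groups did not overlap, but the change of 0.24 (95% interval 0.08 to 0.40) did not pass, and it was 0.17 without control replicate 1. The RNA exonuclease gene Isg20 differed by 0.07, with overlapping groups.

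In the ISG15 system, which tags proteins with the ubiquitin-like ISG15, both measured genes were higher without overlap and 1 passed. Usp18 encodes the protease that removes ISG15 and also dampens signalling at the type I receptor. It read 7.98, 7.91 and 7.80 in the controls and 8.37, 8.35 and 8.44 with Dhx9.1241, with control replicate 1 the highest of the controls here. It rose by 0.49 (SE 0.060, 95% interval 0.36 to 0.63, adjusted p = 0.00458). Herc6, the ligase that attaches ISG15 in mice, differed by 0.22 (adjusted p = 0.134), and passed only after quantile normalization again (0.0417).

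Membrane and secreted effectors had the most genes that rose, 4 of 6, with a median change of 0.46. Lgals3bp, a secreted glycoprotein that binds galectins, read 9.83, 10.10 and 10.15 in the controls and 10.91, 10.86 and 10.87 with Dhx9.1241. The Dhx9.1241 arrays were close together, with an SD of 0.028, while control replicate 1 lay below the other controls. The change was 0.85 (95% interval 0.66 to 1.04, adjusted p = 0.00187), and 0.75 without that array. Cxcl10, a chemokine that draws T and NK cells, read 8.72, 8.66 and 8.76 against 9.44, 9.59 and 9.56. It rose by 0.81 (SE 0.057, adjusted p = 0.000534), or 1.76-fold, and the related chemokine genes Cxcl9 and Cxcl11 did not pass.

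Rtp4, a receptor chaperone that also binds viral RNA, read 7.42, 7.68 and 7.66 in the controls and 8.21, 8.06 and 8.15 with Dhx9.1241, a rise of 0.55 (adjusted p = 0.00929). Ifi27, a small membrane protein gene, read 9.64, 9.68 and 9.56 against 10.00, 9.94 and 10.01 and rose by 0.36 (adjusted p = 0.0104). In both genes the groups were apart, but both calls were lost when Dhx9.1241 replicate 1 was left out (adjusted p = 0.0544 and 0.0613) and when replicate 3 was (0.0559 and 0.0616). Ifi27l2a, a relative of Ifi27, rose by 0.47, with a call that was likewise lost without either of those arrays. Bst2, or tetherin, which holds budding virus at the cell surface, differed by 0.20 without overlap (adjusted p = 0.137, and 0.0384 with array weights), and Ifitm3, which blocks virus entry, by 0.05 with overlap. Ifitm6, another gene of the Ifitm family, fell by 0.50 (adjusted p = 0.00658), and Ifitm2 differed by -0.29 and did not pass.

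None of the PARP, TRIM and GTPase genes rose, apart from Trim25 when limma used a variance trend and robust estimation. Of the 15 in these subgroups 2 fell and 13 did not pass, and their median change was -0.03. Parp14, a mono-ADP-ribosyltransferase, read 9.88, 10.03 and 10.00 in the controls and 9.75, 9.69 and 9.68 with Dhx9.1241. The groups did not overlap, and it fell by 0.26 (95% interval -0.39 to -0.13) at an adjusted p of 0.0484, just inside the threshold. That call held without control replicate 1 and was lost without any other array, with p from 0.132 to 0.180. Dtx3l and Parp9, which encode partners in a ubiquitin ligase complex and follow Parp14 in the gene order, differed by -0.04 and -0.03 with overlapping groups, and Parp12, another ADP-ribosyltransferase gene, by 0.03. None of the 11 other PARP and tankyrase genes measured passed.

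The TRIM genes encode ubiquitin ligases. Trim25, which acts on the RNA sensor RIG-I, read 11.75, 11.87 and 11.83 against 11.997, 11.93 and 11.97. Those groups were apart, and the difference of 0.15 did not pass (adjusted p = 0.211), though it did with the variance trend and robust estimation (0.0431). Trim21, a cytosolic antibody receptor, read 9.29, 9.40 and 9.40 against 9.31, 9.19 and 9.21, with a difference of -0.13 and overlap. Trim30a differed by 0.02, and its relative Trim30d, which is not among the effector genes listed, fell by 0.30 (adjusted p = 0.0478), a call that held in 1 of the 6 fits without 1 array, that without control replicate 1.

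Among the 8 GTPase genes the 2 lowest changes, those of Ifi47 and Igtp, were of immunity-related GTPases, which act on the vacuoles of intracellular microbes and are known as targets of interferon gamma. Ifi47 read 10.72, 10.74 and 10.72 in the controls and 10.36, 10.06 and 10.36 with Dhx9.1241. The control SD, 0.011, was the smallest of any effector gene, and replicate 2 was the lowest of the Dhx9.1241 arrays. Ifi47 fell by 0.46 (SE 0.081, 95% interval -0.65 to -0.28, adjusted p = 0.0220), or 1.38-fold. The call held when control replicate 1 or Dhx9.1241 replicate 2 was left out (adjusted p = 0.0274 in each) and was lost without any of the other 4 arrays, where p was 0.0542 to 0.0797. Igtp read 8.28, 8.38 and 8.40 against 8.21, 8.18 and 8.09, also without overlap, and its difference of -0.19 did not pass (adjusted p = 0.135), though it did with array weights (0.0267). Irgm1 and Iigp1 differed by -0.03 and -0.02 and overlapped. Mx2, of the dynamin-like Mx proteins, read 6.76, 6.87 and 7.06 against 7.12, 7.06 and 6.95, a difference of 0.15 with overlap, and Mx1 differed by -0.03. Mx1, Iigp1 and Mx2 were dim, with control means of 5.60, 5.15 and 6.90 where array medians were 8.43 to 8.51. Such dim probe sets may report little transcript, so the absence of a call in these genes says little. The guanylate-binding protein genes Gbp2 and Gbp3 differed by 0.02 and -0.07. Gbp3 had the largest spread of any effector gene among the Dhx9.1241 arrays (SD 0.252), so its interval, -0.34 to 0.20, is wide.

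The remaining 7 genes held no call. Tor3a, a torsin family ATPase gene, was lowest and read 9.85, 9.99 and 9.96 in the controls against 9.77, 9.66 and 9.69. Its groups were apart, the difference was -0.22 (adjusted p = 0.0937), and without control replicate 1 it became -0.26 with an adjusted p of 0.0299. Trafd1, a negative regulator of innate signalling, read 10.02, 10.03 and 10.19 against 10.15, 10.19 and 10.16, a difference of 0.08 with overlap. Between them stood the nuclear body gene Sp100 (0.07), Samd9l (0.07), Ifi35 (0.05), Xaf1 (0.0028) and the RNA helicase gene Znfx1 (-0.01), all with overlap.

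**Figure D3:**
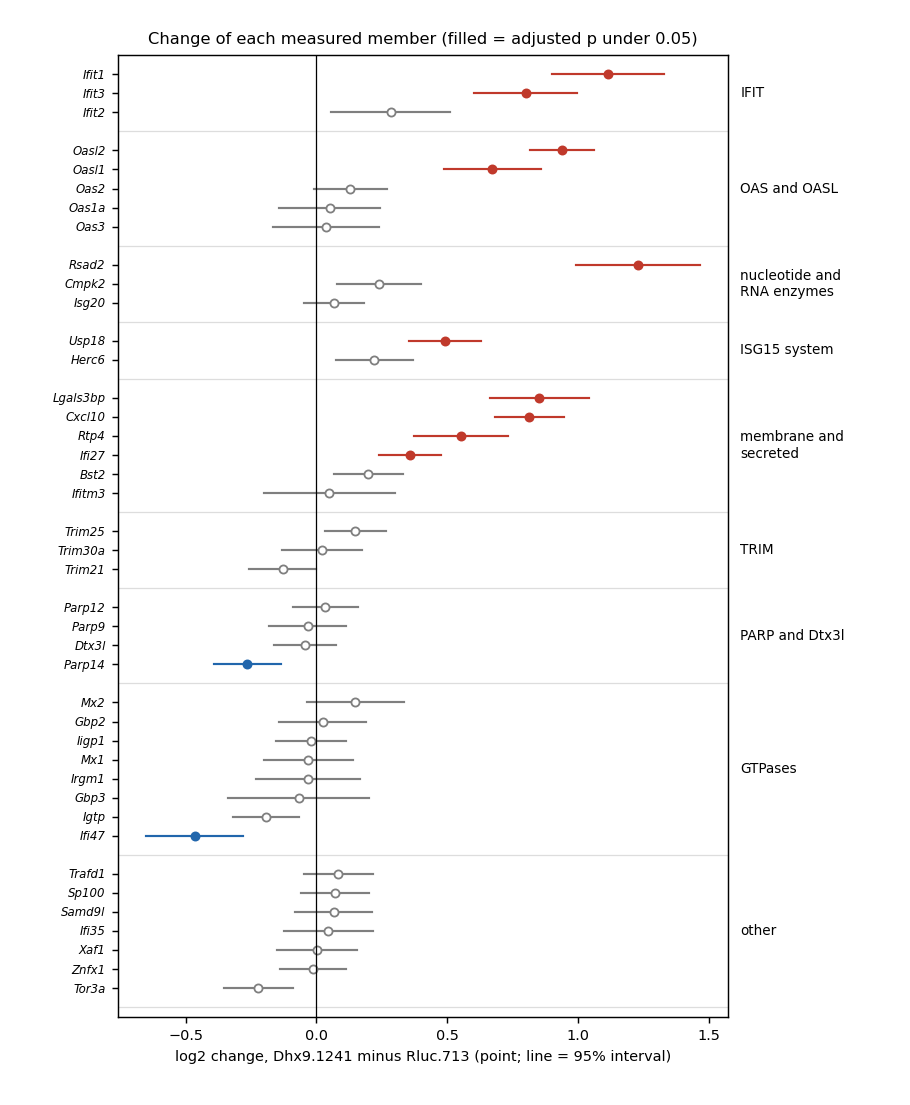
Log2 change, Dhx9.1241 minus Rluc.713, of the 41 measured effector genes (points) with 95% intervals (lines), by subgroup. Filled points passed at an adjusted p under 0.05, red higher and blue lower; the 10 that rose lie in 5 subgroups, and the PARP, TRIM, GTPase and remaining subgroups hold none.

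Set side by side, the median changes were 0.80 for IFIT, 0.46 for membrane and secreted, 0.36 for the ISG15 system, 0.24 for nucleotide and RNA enzymes, 0.13 for OAS and OASL, 0.05 for the remaining genes, 0.02 for TRIM, -0.03 for the GTPases and -0.04 for PARP. The 4 immunity-related GTPases were all below 0, with a median of -0.11, but Irgm1 and the dim Iigp1 changed sign in some fits without 1 array. These subgroups hold 2 to 8 genes each, and no difference between them was tested. The order of the lower medians was not stable. With 1 array left out, that of TRIM ranged from -0.04 without control replicate 1 to 0.08 without control replicate 3, and that of the GTPases from -0.08 without control replicate 1 to 0.02 without Dhx9.1241 replicate 2. The median of the remaining genes ranged from -0.0049 without Dhx9.1241 replicate 1 to 0.07 without Dhx9.1241 replicate 2, that of PARP from -0.07 without control replicate 1 to -0.0096 without Dhx9.1241 replicate 2, and that of OAS and OASL from 0.08 without control replicate 2 to 0.18 without control replicate 1. When dim genes below the median level were dropped, OAS and OASL had a median of 0.81 over 2 genes, both OASL, and the GTPases one of -0.25 over 2 genes. The 29 genes that did not pass had a median of 0.04, with 19 above 0, 5 lying entirely above the controls and 2 entirely below. Over all genes 9858 of 18784 were above 0, and 11.6% lay entirely above and 8.51% entirely below. No shift of these 29 genes was tested.

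**Figure D4:**
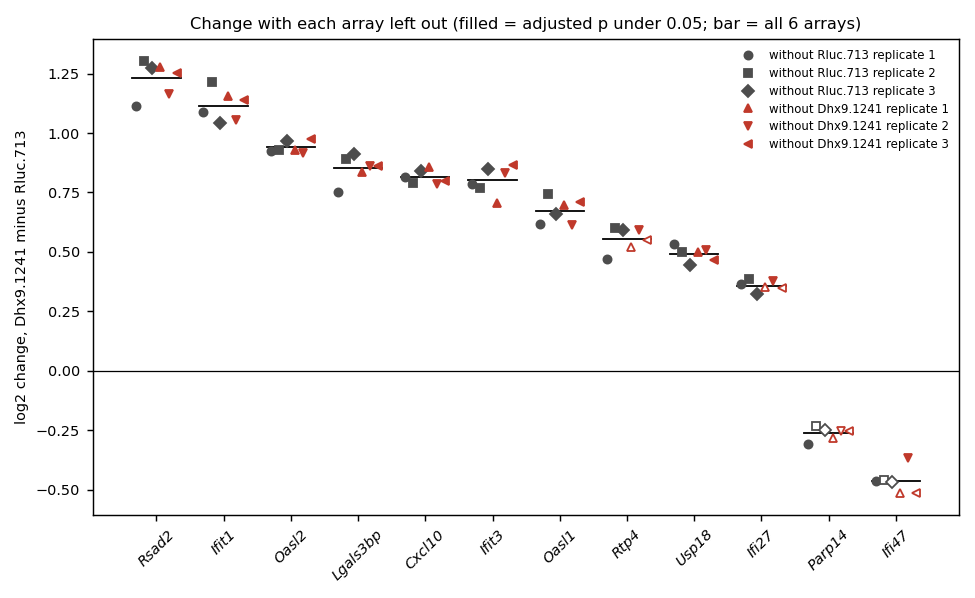
Log2 change (y axis) of the 12 effector genes that passed, with each of the 6 arrays left out in turn (symbols), beside the change over all 6 arrays (bars). Filled symbols passed at an adjusted p under 0.05. Rsad2 to Oasl1 and Usp18 stay filled throughout, Rtp4 and Ifi27 each have 2 open symbols, Parp14 has 5 and Ifi47 has 4.

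None of the 12 effector genes that passed changed sign when 1 array was left out, which their lack of overlap between groups fixed in advance. The change of Rsad2 ranged from 1.11 to 1.30, that of Ifit1 from 1.04 to 1.21 and that of Oasl2 from 0.92 to 0.97. Ifit1, Ifit3, Oasl1, Oasl2, Usp18, Rsad2, Cxcl10 and Lgals3bp passed in all 6 fits. The SD between arrays, with a median of 0.0925 over the effector genes in the controls and 0.0619 with Dhx9.1241, was close to that of all genes, 0.0792 and 0.0587.

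Upstream of the effectors, the interferons and their receptors did not pass the test. None of 14 such genes did so, against 3.14% of all genes, and before adjustment 2 higher and 2 lower genes had a p under 0.05, as did 8.5% and 5.63% of all genes. Ifnb1, the gene of interferon beta, differed by -0.04 (95% interval -0.17 to 0.09), with overlap. Ifnb1, Ifna4 and Ifne were dim, with control means of 6.71, 6.39 and 6.76 where array medians were 8.43 to 8.51. For these interferon genes, too, the absence of a call says little. Ifnar1 and Ifnar2, the type I receptor subunits, differed by 0.16 (adjusted p = 0.192) and 0.11 (adjusted p = 0.448), both without overlap. Of the 14 genes 3 lay entirely above the controls and 3 entirely below, as did 11.6% and 8.51% of all genes. Ifngr1, a subunit of the type II receptor, was lowest at -0.24.

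Among 13 measured genes of the kinases, STATs, IRFs and SOCS proteins 1 rose. Irf7, which amplifies interferon gene expression, read 7.78, 7.82 and 7.68 in the controls and 8.03, 8.14 and 8.28 with Dhx9.1241. The groups did not overlap, and it rose by 0.39 (SE 0.073, adjusted p = 0.0279), a call that held in 2 of the 6 fits without 1 array, which left out control replicate 1 or Dhx9.1241 replicate 1. Stat2 and Irf9, which encode parts of the complex that binds the response element, differed by 0.20 (adjusted p = 0.247) and 0.26 (adjusted p = 0.0703). In both the groups did not overlap. Of the 13 genes 3 lay entirely above the controls and 1 entirely below.

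Of 15 sensors and their adaptors 2 rose. Ifih1, which encodes the sensor of long double-stranded RNA MDA5 and is itself induced by interferon, read 7.89, 8.01 and 8.05 against 8.58, 8.60 and 8.53. Its rise of 0.59 (SE 0.057, adjusted p = 0.00187) passed in all 6 fits without 1 array. Ikbke, a kinase gene of the same pathway, read 8.13, 8.27 and 8.15 against 8.64, 8.43 and 8.51 and rose by 0.35 (adjusted p = 0.0341), but passed in 1 of the 6 such fits, that without control replicate 1. The related RNA sensor genes Ddx58 and Dhx58 differed by -0.03 and 0.19 and did not pass.

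**Figure D5:**
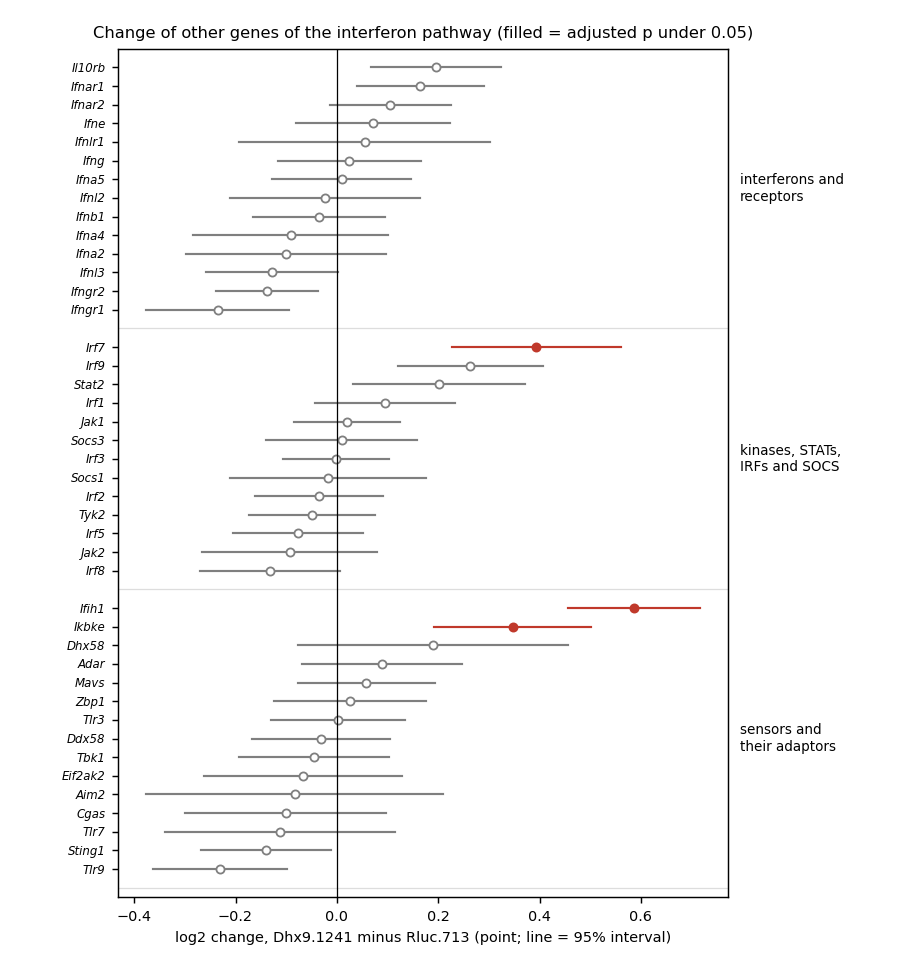
Log2 change, Dhx9.1241 minus Rluc.713 (points), with 95% intervals (lines), of 14 interferon and receptor genes, 13 kinase, STAT, IRF and SOCS genes and 15 sensor and adaptor genes. Filled points passed at an adjusted p under 0.05: Irf7 (0.39), Ifih1 (0.59) and Ikbke (0.35).

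Close relatives of the effector genes gave another view of the families. Of 48 measured, 1 rose (Ifi27l2a) and 3 fell (Ifitm6, Trim30d and Herc4), where 2.07% of all genes rose and 1.07% fell. The median change of the 48 was 0.0058, near that of all genes. Herc4, a relative of Herc6, fell by 0.27 (adjusted p = 0.0186), a call that held only in the fit without control replicate 1 among the 6 without 1 array. The 8 further guanylate-binding protein genes measured differed by between -0.19 and 0.16, and none passed.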

How the data were processed

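RNA of the 6 samples was labelled with a 3′ in vitro transcription kit and hybridised to arrays, per the labels' protocols. The authors deposited log2 values, for which the submitters' processing notes name RMA, the robust multi-array average, which draws arrays to 1 distribution and tends to compress changes of dim genes. RMA's version and the definition of the probe sets were not stated in the sources used here, and array medians were 8.43 to 8.51. Of 21212 probe sets, 18786 had 1 symbol in the platform annotation, 6 had several and 2420 were unnamed here; where a gene had more than 1, the brightest was used, which left 18784 genes, with no filter.

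The arrays were grouped by hairpin, 3 each, and the number of arrays limits the precision. Dhx9.1241 minus Rluc.713 was fitted over all genes by lmFit and eBayes of limma 3.58.1 (R 4.3.3) without covariates, two-sided, with Benjamini-Hochberg adjustment across them. Fold values are the log2 changes taken out of the log scale. The fit was checked on simulated data. Values on each array are given for effector genes that passed and for the extremes of each subgroup, besides upstream genes and relatives that passed. The effector genes, the other lists, the subgroups and the alternatives were chosen with earlier results of these data known, so counts over them are descriptions. Alternatives were other probe set rules, filters, normalizations, variance models, weights for arrays, a block for the replicate number, and leaving out each array. Promoters are from RefSeq and matched by symbol.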

Additional observations from a re-analysis of the deposited data

How the results depend on the processing

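Between 8 and 10 effector genes rose when 1 array was left out, with 8 of the 10 passing each time, and 0 to 3 fell. The 4 fits with no fall left out control replicate 2, control replicate 3, Dhx9.1241 replicate 1 and Dhx9.1241 replicate 3. Of rises there were 11 after quantile normalization again (Herc6 added), with a variance trend and robust estimation (Trim25 added) and with array weights (Bst2 added). The count of falls was 2 over all arrays, 3 after quantile normalization again and after cyclic loess, 1 with each array centred on its median, 4 with array weights and 1 with every probe set tested alone. Among the 26 effector genes at or above the median level 7 rose and 3 fell. The replicate number as a block left 9 that rose and 1 that fell, losing Ifi27 (adjusted p = 0.0527) and Parp14 (0.154). Samples with the same number deviated from their group means with correlations of -0.27, -0.34 and 0.24, and 2 of 6 arrays correlated best with their own number. The labels do not say whether samples with the same number were handled together, and so few arrays cannot decide it. In 14 genes, all under 0.07 in size and none that passed, the sign changed under some setting. Their ranges with 1 array left out were -0.0333 to 0.123 for Oas1a, -0.0429 to 0.139 for Oas3, -0.0734 to 0.015 for Parp9, -0.0024 to 0.0628 for Parp12, -0.0356 to 0.0772 for Trim30a, -0.0902 to 0.0452 for Mx1, -0.0442 to 0.0873 for Gbp2, -0.1884 to 0.0632 for Gbp3, -0.1223 to 0.0477 for Irgm1, -0.0612 to 0.0195 for Iigp1, -0.0548 to 0.1465 for Ifitm3, -0.0191 to 0.0988 for Ifi35, -0.0535 to 0.0359 for Xaf1, -0.0554 to 0.027 for Znfx1 and, upstream, -0.0679 to 0.0087 for Ifnb1. With array weights Trim30a was -0.0069, Gbp2 -0.0173, Ifitm3 -0.0178, Ifi35 -0.0044, Xaf1 -0.0400 and Ifnb1 0.0006. Xaf1 was also -0.0102 after quantile normalization, -0.0168 after cyclic loess and -0.0167 after centring. The causes were not tested. Over all genes 389 rose and 201 fell, and across the settings these counts ranged from 126 to 673 and from 70 to 542.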
